A study of Mus musculus with 18 samples.

Results

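The comparison was between CD4+ T cells and CD11b+ myeloid cells that both carry the Dnmt3a R878H mutation, read at every genomic region that could be matched between the 2 cell types. Regions of the CD4 and CD11b methylation tables were paired where they overlapped by at least 50% of both lengths, on the autosomes. This gave 135766 pairs from 547975 CD4 regions and 407396 CD11b regions, or 24.8% of the former and 33.3% of the latter. The mean methylation of CD4+ and CD11b+ cells was then compared within each pair, first in R878H cells and then in wild-type (WT) cells, so that each lineage difference could be called kept, lost or present in R878H cells alone.

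Whole-genome bisulfite sequencing was run on cells from the spleen of Dnmt3a+/+ (WT) and Dnmt3a R878H/+ mice without further treatment. The labels list 4 WT mice and 4 R878H/+ mice for each cell type, and the CD11b+ R878H/+ group has 6 entries because replicates 3 and 4 have a pair of entries each. The mutant allele is a conditional one that was switched on by Vav1-iCre, a Cre driven in blood-forming cells, so T cells and myeloid cells descended from stem cells that already carried it. In the study, the name Dnmt3a+/+ covers mice with Cre and normal alleles, and mice with the conditional allele but no Cre. Which of these the WT mice were is not given. The study used young adults matched for sex and age. CD11b+ cells were taken from spleen on magnetic columns, and CD4+ cells were then selected from what remained, so CD11b+ holds monocytes, macrophages and neutrophils together, and CD4+ holds helper and regulatory T cells together. The purity of the sorts was not tested here. The deposited tables hold only the authors' mean of each group. Values of individual mice and read depth are not part of them, so the means below have no error between mice and no difference could be tested.

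DNMT3A adds methyl groups to CpG dinucleotides that carried none, and works mainly where cells change identity. R878H is the mouse counterpart of the human R882H mutation, which lowers the activity of the enzyme and of the normal copy it binds. When a blood stem cell becomes a T cell or a myeloid cell, enhancers and promoters used by that lineage lose methylation while those of other lineages keep or gain it. Each lineage therefore has its own set of low regions, and low methylation at a gene in 1 cell type is commonly found where that cell type uses the gene.

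Some of the regions the results turn on are shown first, as the plus strand of mm10 with every CpG in capitals, each being the stretch shared by both tables or its central 300 bases. Bcl11b encodes a transcription factor that commits cells to the T lineage, and Spi1 encodes PU.1, the master factor of myeloid cells; the others were at an extreme of the comparison, being the largest lineage differences in R878H cells and those that shrank or grew most.
Bcl11b intron, chr12:107921702-107921863, lower in CD4+ cells of both genotypes: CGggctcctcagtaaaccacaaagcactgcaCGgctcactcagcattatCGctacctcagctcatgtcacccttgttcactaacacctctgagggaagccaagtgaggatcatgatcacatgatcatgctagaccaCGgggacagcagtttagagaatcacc
Spi1 intron, chr2:91089347-91089646, lower in CD11b+ cells and wider apart in R878H: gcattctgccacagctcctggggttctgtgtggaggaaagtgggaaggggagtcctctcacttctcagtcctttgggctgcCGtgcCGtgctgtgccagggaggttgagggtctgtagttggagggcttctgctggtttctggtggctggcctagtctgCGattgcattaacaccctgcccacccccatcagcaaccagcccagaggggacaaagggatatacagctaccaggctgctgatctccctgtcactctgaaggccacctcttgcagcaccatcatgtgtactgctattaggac
Fndc3b intron, chr3:27462543-27462802, the largest CD4-lower difference in R878H: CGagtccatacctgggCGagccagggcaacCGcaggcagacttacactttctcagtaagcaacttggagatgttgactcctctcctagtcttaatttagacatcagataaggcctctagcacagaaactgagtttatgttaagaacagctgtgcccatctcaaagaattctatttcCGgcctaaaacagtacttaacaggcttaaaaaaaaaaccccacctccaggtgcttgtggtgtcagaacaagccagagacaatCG
Arhgap9 promoter, chr10:127322200-127322488, the next largest: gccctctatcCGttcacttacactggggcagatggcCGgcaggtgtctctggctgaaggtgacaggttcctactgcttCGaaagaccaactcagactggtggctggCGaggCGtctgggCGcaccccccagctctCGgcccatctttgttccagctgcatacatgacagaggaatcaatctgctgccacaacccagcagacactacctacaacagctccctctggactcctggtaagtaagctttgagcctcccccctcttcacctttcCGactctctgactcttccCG
Csnk1e promoter, chr15:79432592-79432891, the largest CD11b-lower difference in R878H: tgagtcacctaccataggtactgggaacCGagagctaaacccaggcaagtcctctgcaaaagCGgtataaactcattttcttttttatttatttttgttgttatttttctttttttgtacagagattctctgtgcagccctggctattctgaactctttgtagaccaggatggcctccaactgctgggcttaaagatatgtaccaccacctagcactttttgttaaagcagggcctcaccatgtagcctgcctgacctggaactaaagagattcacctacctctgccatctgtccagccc
Coq2 intron, chr5:100656168-100656467, the next largest: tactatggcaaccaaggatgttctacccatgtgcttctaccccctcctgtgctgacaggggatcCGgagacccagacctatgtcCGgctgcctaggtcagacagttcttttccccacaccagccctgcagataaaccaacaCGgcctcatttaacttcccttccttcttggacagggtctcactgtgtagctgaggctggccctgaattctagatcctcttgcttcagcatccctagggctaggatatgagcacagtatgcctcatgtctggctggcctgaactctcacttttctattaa
Kcnn4 exon, chr7:24377155-24377433, the CD4-lower difference that shrank most: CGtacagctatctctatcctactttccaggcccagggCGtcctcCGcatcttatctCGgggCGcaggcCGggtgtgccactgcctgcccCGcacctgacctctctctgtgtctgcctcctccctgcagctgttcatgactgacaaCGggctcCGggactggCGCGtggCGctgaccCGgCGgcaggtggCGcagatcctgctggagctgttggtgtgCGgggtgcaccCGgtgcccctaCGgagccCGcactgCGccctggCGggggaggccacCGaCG
Between genes near Nanos3, chr8:84192207-84192400, the CD11b-lower difference that shrank most: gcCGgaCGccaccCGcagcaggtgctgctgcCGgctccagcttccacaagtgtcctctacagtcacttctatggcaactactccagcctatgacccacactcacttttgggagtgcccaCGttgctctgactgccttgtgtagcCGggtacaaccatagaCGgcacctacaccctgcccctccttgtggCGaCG
Abr intron, chr11:76437481-76437780, the CD11b-lower difference that grew most: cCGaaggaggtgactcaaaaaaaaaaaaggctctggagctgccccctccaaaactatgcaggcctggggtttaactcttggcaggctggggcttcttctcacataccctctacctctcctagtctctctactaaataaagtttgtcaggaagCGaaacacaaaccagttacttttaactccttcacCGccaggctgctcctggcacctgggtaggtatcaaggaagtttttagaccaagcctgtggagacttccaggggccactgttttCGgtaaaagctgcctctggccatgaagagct
The Kcnn4 stretch holds 23 CpGs in 279 bases and the Csnk1e stretch 2 in 300 bases, so the extremes range from a dense CpG cluster to nearly none.

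The cell types were alike at most regions in both genotypes. Over all pairs, the median methylation was 87.7% in CD4+ and 86.0% in CD11b+ cells of WT mice, and 77.8% in CD4+ and 77.0% in CD11b+ cells of R878H/+ mice. Methylation was lower in R878H than in WT at 97.6% of the pairs in CD4+ cells, at 96.6% in CD11b+ cells and at 94.8% in both. The median loss was 8.70 percentage points (points below) in CD4+ and 8.23 points in CD11b+ cells. The median of CD4 minus CD11b was 1.23 points in WT and 1.08 points in R878H, and its standard deviation over pairs was 8.72 points in WT and 9.83 points in R878H. A difference under 10 points was seen at 82.0% of pairs in WT and 77.9% in R878H. Across the 135766 pairs, which share libraries and base composition, the lineage difference in WT and that in R878H had a Pearson's r of 0.830, and the loss in CD4+ and that in CD11b+ cells one of 0.767. The tables list regions that were cut separately in each cell type to compare genotypes, so paired regions can differ at their edges, and the median overlap was 74.3%. The shared stretch was 450 bp long at the median and ranged from 7 to 2354 bp.

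**Figure D1:**
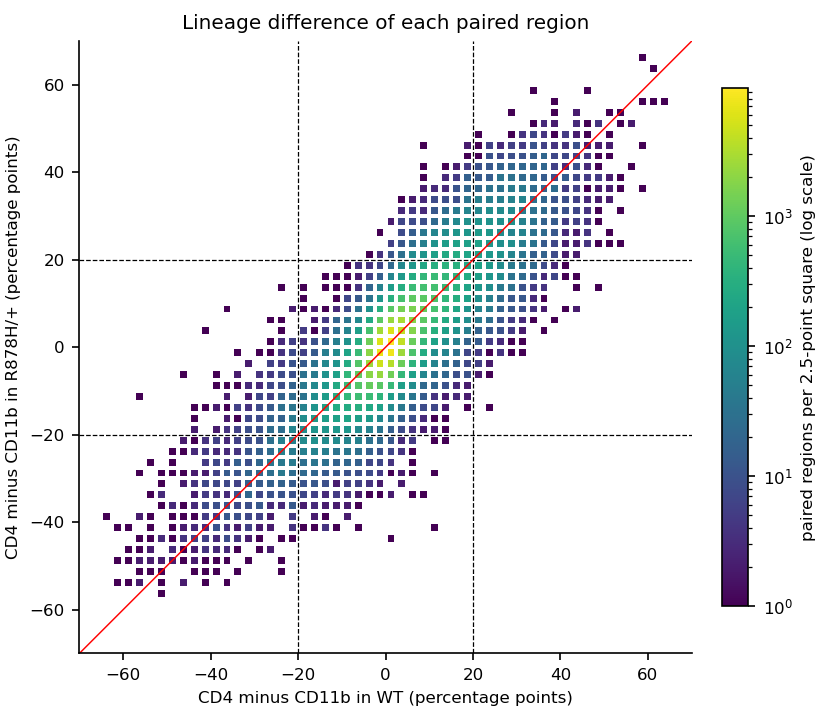
Lineage difference (CD4 minus CD11b, in percentage points) in WT on the x axis against that in R878H/+ on the y axis, with colour for the number of paired regions in each 2.5-point square on a log scale. The red line marks equal differences and the dashed lines 20 points; the cloud follows the red line (r = 0.830), and the corners where a difference past 20 points would turn to the other sign are empty.

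A lineage difference was counted where the means of both cell types were at least 20 points apart. In R878H cells, 2392 pairs (1.76% of all pairs) were lower in CD4+ cells, called CD4-lower, and 6825 pairs (5.03%) were lower in CD11b+ cells, called CD11b-lower. In WT cells the counts were 1727 (1.27%) and 5742 (4.23%). CD11b-lower pairs thus outnumbered CD4-lower pairs by 2.85 to 1 in R878H and 3.32 to 1 in WT. R878H cells had 1.39 CD4-lower pairs for each in WT and 1.19 CD11b-lower pairs for each in WT. Set on a log2 odds scale instead of points, with a size that gave as many WT pairs in all, CD11b-lower pairs were fewer in R878H than in WT (5140 against 5814), while CD4-lower pairs were still more numerous (1975 against 1655).

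About 2 in 3 WT lineage differences were kept. Of the 1727 CD4-lower pairs of WT, 1188 (68.8%) were also past 20 points in R878H and 539 (31.2%) were not. Of the 5742 CD11b-lower pairs of WT, 3894 (67.8%) were kept and 1848 (32.2%) were not. No pair past 20 points in WT was past 20 points in the opposite direction in R878H, in either direction. Seen from the mutant cells, 1204 of 2392 CD4-lower pairs (50.3%) and 2931 of 6825 CD11b-lower pairs (42.9%) were under 20 points in WT. The kept share of CD4-lower pairs depended on how closely the paired regions matched. It was 57.4% at an overlap of at least 80%, 49.2% at 95% and 39.5% of 38 pairs with identical start and end, where the share absent in WT was 71.2%. For CD11b-lower pairs with identical start and end, the kept share was 66.2% and the share absent in WT 42.8%. Only 19.5% of the CD4-lower and 32.3% of the CD11b-lower pairs of R878H overlapped by at least 80%, against 39.5% of all pairs.

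Most WT differences moved by less than 10 points. Of the CD4-lower pairs of WT, 73.2% stayed within 10 points of their WT size, 22.2% shrank by at least 10 points and 4.57% grew by as much. Of the CD11b-lower pairs of WT, 74.8% stayed, 17.9% shrank and 7.30% grew. Choosing pairs by their WT difference favours shrinkage and choosing them by their R878H difference favours growth, so both are given. Among pairs chosen in R878H, 33.3% of CD4-lower and 26.4% of CD11b-lower pairs were larger than in WT by at least 10 points, and 4.39% and 2.92% were smaller. The median size of the CD4-lower pairs of WT went from 25.7 points in WT to 24.6 points in R878H, and that of the CD11b-lower pairs of WT from 25.2 to 24.3 points. CD4-lower pairs of at least 40 points numbered 170 in WT and 154 in R878H, and those of at least 50 points 43 and 18. CD11b-lower pairs of at least 40 points numbered 232 in WT and 372 in R878H, and those of at least 50 points 29 and 31.

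Kept, lost and mutant-only differences sat at different methylation levels, as the plot of class medians shows. Kept CD4-lower pairs had median levels of 46.5% in CD4+ and 77.6% in CD11b+ cells of WT mice and moved down together, to 36.3% and 67.8% in R878H. Kept CD11b-lower pairs went from 81.4% to 62.8% in CD4+ and from 52.9% to 32.1% in CD11b+ cells. Where a CD11b-lower difference was under 20 points in R878H, both cell types started lower, at 66.7% in CD4+ and 42.2% in CD11b+, and ended at 38.9% and 24.5%. The cell type that had been methylated lost more there, 24.8 points against 14.7 points. Where a CD11b-lower difference was seen in R878H alone, both started high, at 87.0% in CD4+ and 72.2% in CD11b+, and ended at 72.3% and 47.5%. The median loss was then 12.3 points in CD4+ and 22.6 points in CD11b+ cells. Mutant-only CD4-lower pairs mirrored this, with a start of 69.9% and 82.1%, an end of 49.5% and 73.8%, and a loss of 18.3 points in CD4+ and 7.18 points in CD11b+ cells. Which cell type lost more in the lost and mutant-only classes follows from how the classes are defined. The levels are not free of the definition either, since means that both lie near the same end of the scale cannot be 20 points apart. How much of the difference in levels comes from this limit was not tested. Mutant-only pairs were mostly not far from the limit in WT, with a median WT size of 12.7 points for CD4-lower and 15.1 points for CD11b-lower.

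**Figure D2:**
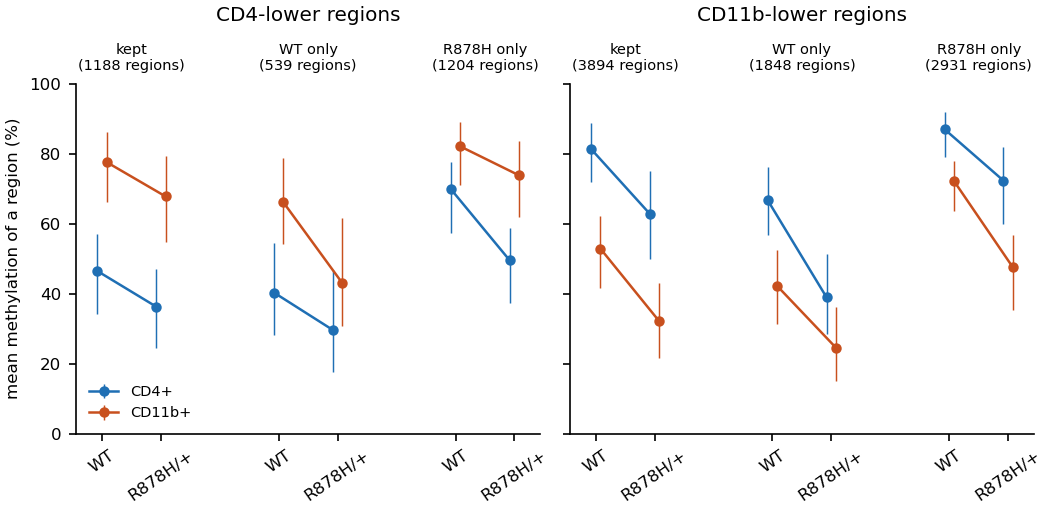
Median methylation in percent (y axis) of CD4+ (blue) and CD11b+ (orange) cells in WT and R878H/+ mice (x axis), for regions whose lineage difference was kept, seen in WT only or seen in R878H only. Bars span the first to the third quartile over regions, not an error between mice; lines of kept regions run in parallel, those of WT-only regions close and those of R878H-only regions open.

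The level in WT separated regions where lineage differences became rarer from those where they became more common. Among pairs with a WT mean over both cell types of 40 to 50%, CD11b-lower pairs went from 17.8% in WT to 10.5% in R878H. At 60 to 70% the share was 13.2% and 13.1%. At 70 to 80% it went from 8.01% to 11.6%, and at 80 to 90% from 1.06% to 4.30%. CD4-lower pairs went from 6.48% to 5.20% at 40 to 50%, from 1.90% to 3.29% at 70 to 80% and from 0.207% to 1.19% at 80 to 90%. The standard deviation of the lineage difference moved the same way, from 16.2 to 13.8 points at 40 to 50% and from 6.28 to 9.29 points at 80 to 90%. A pair near 0% or 100% in the WT mean cannot be 20 points apart in WT, so the lowest and highest levels had no WT calls to compare. The same limit leaves less room for a WT difference at 80 to 90% than at 40 to 50%. The shares by level were not counted on the log2 odds scale, so whether they depend on the scale was not tested.

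**Figure D3:**
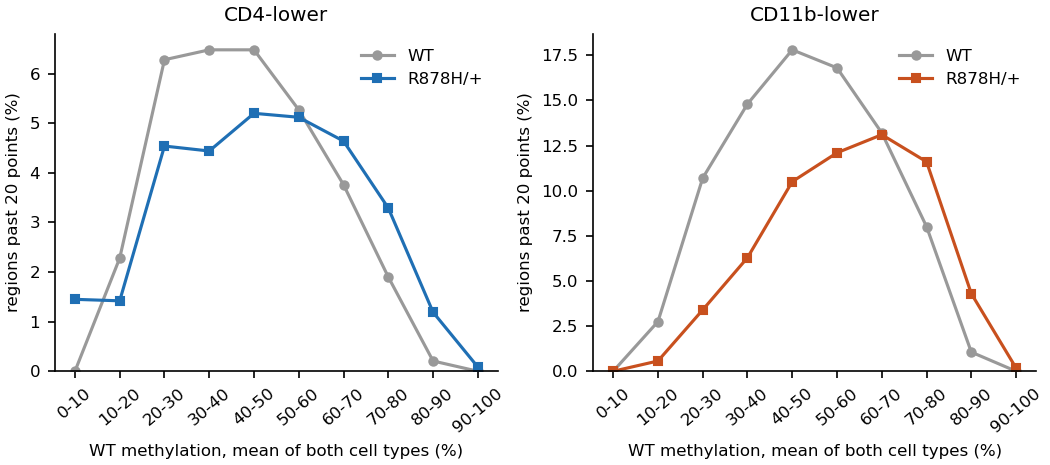
Share of paired regions at least 20 points apart (y axis, percent) by WT methylation averaged over both cell types (x axis, 10-point steps), for CD4-lower (left) and CD11b-lower (right) regions in WT (grey) and R878H/+ (colour). R878H lies below WT from 10 to 60% and above it from 70 to 100%, in both directions.

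Promoters were the places where CD11b-lower differences did not become more common. Within 1 kb of a start site, 7.36% of 8366 pairs were CD11b-lower in WT and 6.75% in R878H, and 59.7% of the WT differences were kept. The share in introns was higher in R878H, from 4.54% to 5.90% of 55562 pairs with 70.7% kept, and in exons, from 3.96% to 5.34% of 11414 pairs with 70.4% kept. Between genes it went from 3.56% to 3.93% of 60424 pairs. CD4-lower pairs were more frequent in R878H in all 4 places, with 2.79% and 3.28% in promoters, 1.38% and 1.83% in introns, 1.17% and 1.91% in exons and 0.981% and 1.46% between genes. Promoter pairs also had the lowest levels, with medians of 71.2% in CD4+ and 67.2% in CD11b+ cells of WT mice and 51.8% and 48.4% in R878H. By chromosome, the share in R878H was 1.37 to 2.11% for CD4-lower and 4.18 to 5.92% for CD11b-lower pairs, so the differences were spread over all 19 autosomes.

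Short motifs of lineage factors were counted on both strands of the 500 bp around the centre of each pair. A match is a description of the letters, and whether a factor binds there was not measured. PU.1, searched as GAGGAAGT, was present in 4.33% of all pairs. It was present in 8.78% of kept CD11b-lower pairs, in 9.36% of those seen in WT alone and in 6.72% of those seen in R878H alone. C/EBP, a family that drives granulocyte genes, was searched as TTGCNNAA and present in 20.9% of all pairs, 32.3% of kept CD11b-lower pairs, 22.4% of those seen in WT alone and 27.8% of those seen in R878H alone. RUNX (TGTGGTT), read by factors active in both lineages, was in 12.2% of all pairs, 17.5% of kept CD4-lower pairs and 14.0% of CD4-lower pairs seen in R878H alone. AP-1 (TGANTCA), a motif bound in activated T cells, was in 16.2% of all pairs, 18.7% of kept CD4-lower pairs, 16.9% of those seen in WT alone and 24.7% of those seen in R878H alone. The ETS motif CAGGAAGT, which shares its core with the PU.1 motif, was in 5.33% of all pairs and in 7.66% of kept CD4-lower and 7.65% of kept CD11b-lower pairs. TCF/LEF (CTTTGAT) was in 8.02% of all pairs, 6.73% of kept CD4-lower pairs, 9.83% of those seen in WT alone and 10.5% of those seen in R878H alone. The motif of GATA factors was searched as AGATAAG and was in 7.52% of all pairs, 8.25% of kept CD4-lower pairs and 7.32% of kept CD11b-lower pairs. Among the stretches printed above, GATA letters occur at Fndc3b and Kcnn4, AP-1 letters at Csnk1e and Abr and RUNX letters at Bcl11b. The median GC content was 45.8% over all pairs, 46.8% in CD4-lower and 47.3% in CD11b-lower pairs of R878H. CpG cytosines were also counted on both strands of the mm10 sequence of each shared stretch. Their median per 100 bp was 2.67 over all pairs, 2.70 in kept and 3.31 in WT-only CD4-lower pairs, and 3.02 in kept and 3.47 in WT-only CD11b-lower pairs.

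Genes of each lineage were then read from lists, with a region assigned to a gene within 5 kb of its body. For all protein-coding genes the 84057 regions were CD4-lower at 1.48% in WT and 1.97% in R878H, and CD11b-lower at 4.79% and 5.87%. In R878H, 9.98% of 16114 genes with a region had at least 1 CD4-lower and 22.8% at least 1 CD11b-lower region. A gene with many regions has more chances of holding one, so the regions are given beside the genes.

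T cell receptor and signalling genes were the list with the largest CD4-lower share in both genotypes. Of their 178 regions, 30 (16.9%) were CD4-lower in WT and 26 (14.6%) in R878H, beside 1.48% and 1.97% over all genes. Of the 30, 19 were kept, beside 848 of 1242 over all genes. The named members were 3 kept CD4-lower regions and 1 kept CD11b-lower region. At the promoter of Zap70, the kinase that relays receptor signals (chr1:36760834-36761217), methylation was 54.7% in CD4+ and 80% in CD11b+ cells of WT mice, and 41.9% and 87.8% in R878H. In an intron of Cd247, the zeta chain of the receptor (chr1:165796949-165797098), it was 57.1% and 95.4% in WT and 52.0% and 89.2% in R878H. These regions held the T cell pattern in mutant cells, and Cd247 had 6 CD4-lower regions among 20 in R878H and 7 in WT. Near Cd8a, the co-receptor of the other T cell branch (chr6:71369128-71369771), the levels were 72.0% and 94.4% in WT and 55.6% and 91.9% in R878H. Themis, needed for T cell selection, ran the other way in an intron, with 86.7% in CD4+ and 54.6% in CD11b+ cells of WT mice and 74.9% and 36.9% in R878H. Cd4 itself, chosen after its values were seen, was CD4-lower in both genotypes in an intron, at 58.9% against 90.5% in WT and 46.9% against 81.8% in R878H. Lck, a kinase of T cell receptor signalling, was chosen in the same way. It had no lineage difference in WT at an exon, at 5.75% in CD4+ and 2.33% in CD11b+, and stood at 1.25% and 28.9% in R878H.

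T cell transcription factors had 18 CD4-lower regions of 189 (9.52%) in WT and 22 (11.6%) in R878H, beside 1.48% and 1.97% over all genes. Of the 18, 13 were kept, beside 848 of 1242 over all genes. Of the 22, 9 were seen in R878H alone, beside 811 of 1659 over all genes. Bcl11b carried the most, with 5 of 12 regions CD4-lower in WT and 9 of 12 in R878H. Its largest, the intron stretch printed above, was 21.0% in CD4+ and 77.5% in CD11b+ cells of WT mice and 37.4% and 83.8% in R878H, so both cell types were higher in the mutant and the gap was narrower. An intron of Ets1, a factor of early T cell genes (chr9:32750203-32750493), was at 52.5% and 73.8% in WT and 46.1% and 85.0% in R878H. Runx3 and Runx1, which also act in myeloid cells, were CD11b-lower at their largest regions. The Runx3 intron (chr4:135149702-135150128) went from 78.5% in CD4+ and 47.6% in CD11b+ to 69.2% and 19.3%, so the gap widened from 30.9 to 49.9 points. The Runx1 intron (chr16:92615424-92615736) went from 90.2% and 60.0% to 74.1% and 31.7%.

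Helper T subset genes and regulatory T and checkpoint receptors had more regions of both directions in R878H than in WT, and the shares over all genes were also higher. The helper list had 2 CD4-lower regions of 146 in WT and 6 (4.11%) in R878H, and 7 CD11b-lower regions in WT and 9 (6.16%) in R878H. The regulatory list had 4 CD4-lower regions of 100 in WT and 10 (10.0%) in R878H, and 6 CD11b-lower regions in WT and 7 (7.00%) in R878H. Over all genes the CD4-lower share was 1.48% in WT and 1.97% in R878H, and the CD11b-lower share 4.79% and 5.87%. No test could be made of the small counts of the lists. Rora, a factor of T helper 17 cells, supplied 4 of the 6 CD4-lower regions of the helper list, but 7 of its 95 regions were CD11b-lower in R878H, and in WT it had 1 and 5. Its largest region (chr9:69156460-69157103) was 6.65 points apart in WT at 84.1% in CD4+ and 90.8% in CD11b+ and stood at 53.5% and 83.8% in R878H. Il10, an anti-inflammatory cytokine gene, was CD11b-lower in a region outside the gene, at 86.4% and 55.6% in WT and 72.8% and 40.1% in R878H. Bcl6, the factor of follicular helper T cells, lost methylation in both cell types at an intron, from 74.2% and 56.4% to 42.2% and 15.2%. Pdcd1, which encodes the checkpoint receptor PD-1, had 1 CD4-lower region of 4 in WT and 2 in R878H, the largest at 68.2% and 89.3% in WT and 48.4% and 80% in R878H. Btla, another inhibitory receptor, was at 15.4% and 45.9% in WT and 22.9% and 59.7% in R878H. Ikzf2 and Entpd1, both used by regulatory T cells, were CD11b-lower at their largest regions, with 79.9% in CD4+ and 43.4% in CD11b+ at Ikzf2 and 79.3% and 45.1% at Entpd1 in R878H. Icos, Tnfrsf4 and Il2rb, receptors of activated and regulatory T cells named after their values were seen, had CD4-lower regions in R878H alone. The Icos intron was 82.5% in CD4+ and 91.3% in CD11b+ cells of WT mice and 58.1% and 82.8% in R878H.

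**Figure D4:**
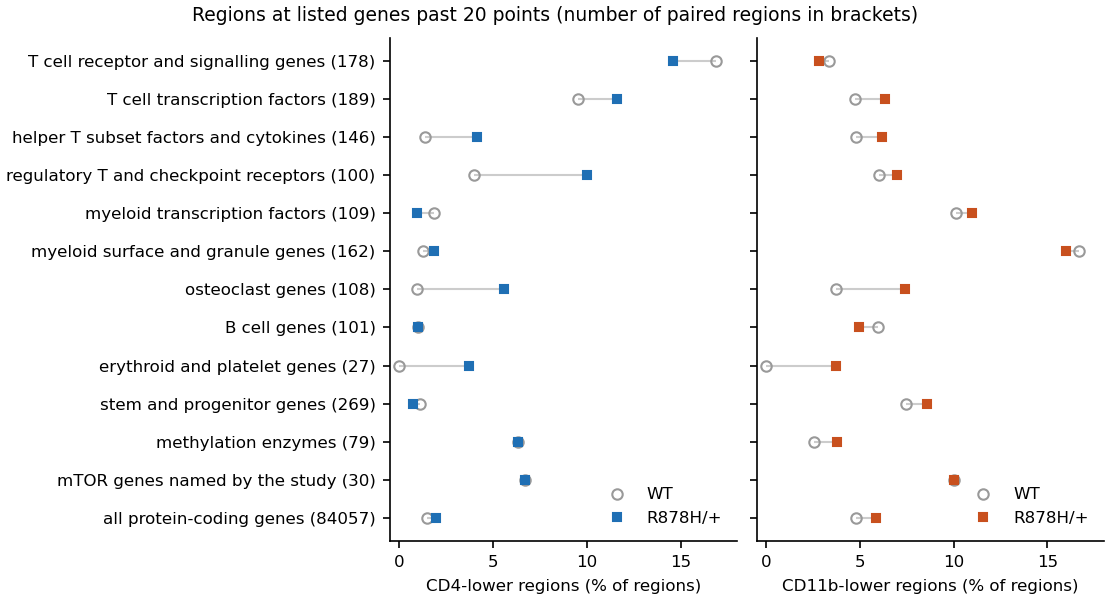
Share of paired regions at listed genes that were at least 20 points lower in CD4+ cells (left) or CD11b+ cells (right), in percent on the x axis, with open circles for WT and filled squares for R878H/+. The number of paired regions stands in brackets, and the natural killer list with 9 regions is left out. T cell receptor genes lead on the left (16.9% and 14.6%) and myeloid surface and granule genes on the right (16.7% and 16.0%).

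Myeloid surface and granule genes were the list with the largest CD11b-lower share in both genotypes. They had 27 CD11b-lower regions of 162 (16.7%) in WT and 26 (16.0%) in R878H, beside 4.79% and 5.87% over all genes. Of the 27, 20 were kept, beside 2766 of 4027 over all genes. The 4 named members, chosen by the size of their R878H difference, all had lower levels in both cell types of R878H mice. Their gaps were kept or wider, which that choice favours. Near Mpo, the neutrophil myeloperoxidase, the region lay over an exon of the neighbouring gene Lpo (chr11:87806957-87807362). Methylation there was 94.6% in CD4+ and 71.3% in CD11b+ cells of WT mice and 91.0% and 50.7% in R878H. Near Ctsg, the granule protease cathepsin G (chr14:56105744-56106051), it was 64.1% and 42.1% in WT and 58.1% and 18.2% in R878H. At the promoter of Csf3r, the receptor for the granulocyte growth factor G-CSF (chr4:126025452-126026066), it was 84.1% and 59.0% in WT and 62.9% and 26.5% in R878H. At the promoter of Cx3cr1, a chemokine receptor of monocytes (chr9:120069160-120069651), it was 89.6% and 53.2% in WT and 79.9% and 41.5% in R878H. Of the 30 regions of Cx3cr1, 3 were CD11b-lower and 2 CD4-lower in R878H, against 1 and 0 in WT. Some myeloid differences were lost, and the examples were chosen after their values were seen. Near Il1b, which encodes the inflammatory cytokine interleukin 1 beta, CD4+ cells went from 73.4% to 36.2% and CD11b+ cells from 39.7% to 22.3%. At the promoter of the integrin gene Itgax, CD4+ cells went from 60.9% to 38.6% and CD11b+ cells from 33.4% to 19.9%.

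Myeloid transcription factors had 11 CD11b-lower regions of 109 (10.1%) in WT and 12 (11.0%) in R878H, beside 4.79% and 5.87% over all genes. Of the 11, 6 were kept, beside 2766 of 4027 over all genes, and no test could be made of so small a count. The intron of Spi1 printed above, with the full stretch at chr2:91089282-91089710, was 84.5% in CD4+ and 66.4% in CD11b+ cells of WT mice and 80.2% and 33.2% in R878H. CD11b+ cells thus lost far more there than CD4+ cells. The gap went from 18.1 points, just under the limit, to 47.0 points, among the 4 CD11b-lower differences that grew most. Of the 9 regions of Spi1, 1 was CD11b-lower in each genotype, but not the same region. The CD11b-lower region of WT was under the limit in R878H, so Spi1 lost 1 such difference and gained 1. Cebpa, which directs granulocyte fate, narrowed from 27.2 to 23.7 points over an exon stretch (chr7:35121270-35122878), with 84.8% and 57.6% in WT and 58.2% and 34.5% in R878H. Cebpd, a related factor, went from 82.8% and 62.7% to 61.4% and 33.9%. The promoter of Nfe2, a factor of platelet and red cell precursors, went from 89.0% and 72.5% to 62.6% and 36.1%.

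Osteoclasts arise from myeloid precursors and resorb bone. Most regions at the genes they use were under 20 points, but in R878H the shares past it were above those over all genes. Of 108 regions at these genes, 1 was CD4-lower in WT and 6 (5.56%) in R878H. CD11b-lower were 4 in WT and 8 (7.41%) in R878H. Over all genes the CD4-lower share was 1.48% in WT and 1.97% in R878H, and the CD11b-lower share 4.79% and 5.87%. In each direction 6 of those in R878H were under the limit in WT. Over all genes this held for 811 of 1659 CD4-lower and 2171 of 4937 CD11b-lower regions of R878H. Where the largest region of an osteoclast gene was of this kind, its WT gap already had the same direction. These WT gaps ran from 9.94 points at Fos to 19.4 points at Nfatc1. Itgb3, an integrin of mature osteoclasts (chr11:104630651-104631145), was CD11b-lower in both genotypes, at 73.9% and 46.1% in WT and 61.6% and 29.8% in R878H. Traf6, which relays RANK signals (chr2:101698157-101698312), went from 94.1% and 84.1% to 86.0% and 55.8%, so the loss was mostly in CD11b+ cells. An exon of Fos (chr12:85475661-85476294) went from 80.5% and 90.4% to 51.5% and 79.0%, with the larger loss in CD4+ cells. Nfatc1, the master factor of osteoclasts that also acts in T cells, lost methylation in both at an intron, from 79.0% in CD4+ and 59.5% in CD11b+ to 48.8% and 22.1%. No test could be made of these small counts either.

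**Figure D5:**
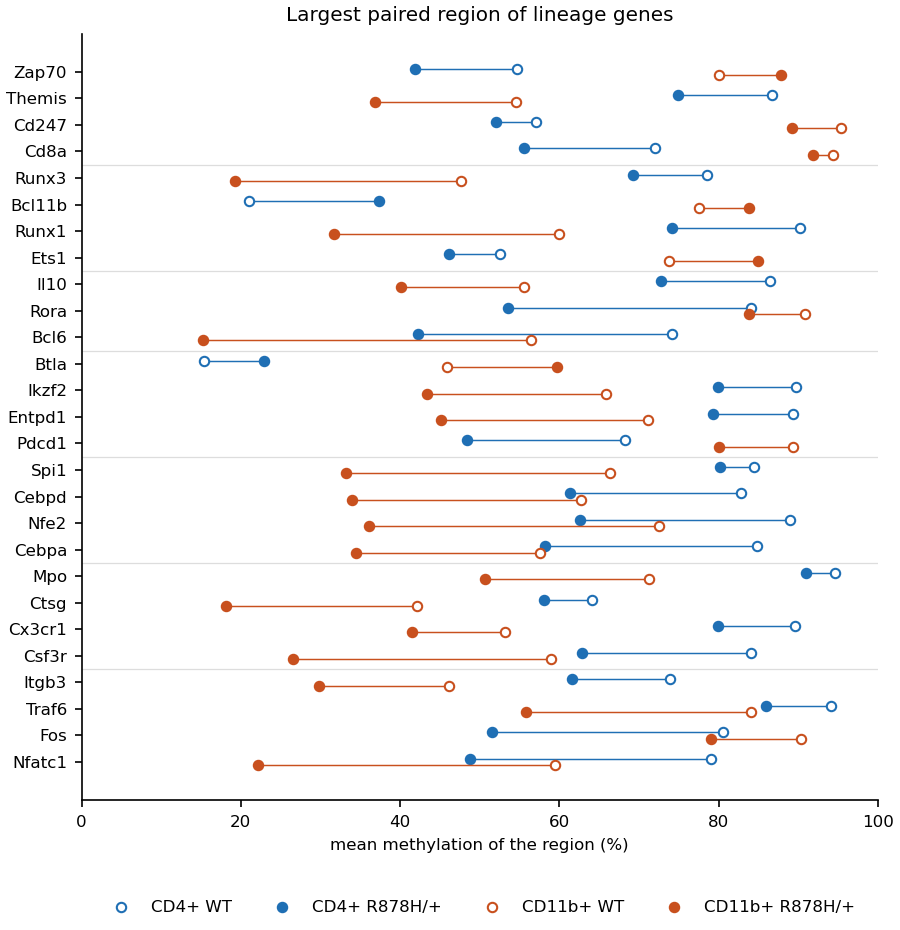
Mean methylation in percent (x axis) of the largest paired region of each gene shown from 7 lists (y axis, lists separated by lines), with open circles for WT and filled circles for R878H/+, and blue for CD4+ and orange for CD11b+ cells. The points are the authors' group means and have no error bars; most lines run to the left, and at Bcl11b and Btla the blue line runs to the right.

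Most regions at stem and progenitor genes were under 20 points in both genotypes. Of 269 regions, 20 (7.43%) were CD11b-lower in WT and 23 (8.55%) in R878H, beside 4.79% and 5.87% over all genes, and 3 and 2 were CD4-lower. Erg, a factor of blood stem cells, had 6 CD11b-lower regions of 50 in R878H, the largest (chr16:95464679-95464930) going from 91.7% in CD4+ and 53.0% in CD11b+ to 73.8% and 22.4%. Kit, the stem cell factor receptor, went from 71.1% and 27.9% to 55.0% and 19.5%, so its gap narrowed from 43.2 to 35.6 points. The largest regions of Lmo2, at 76.3% and 48.4% in R878H, and of Hlf, at 43.4% and 16.5%, were CD11b-lower in both genotypes. Lmo2 had 4 CD11b-lower regions in WT and 2 in R878H, and Hlf had 1 and 3.

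Of 79 regions at genes of the methylation machinery, 5 (6.33%) were CD4-lower in each genotype, beside 1.48% and 1.97% over all genes. Tet3 held 3 of the 5 in each genotype. CD11b-lower regions numbered 2 (2.53%) in WT and 3 (3.8%) in R878H, beside 4.79% and 5.87% over all genes. The regions named below showed no common direction. Dnmt3a, the mutated gene, had 18 paired regions, none past 20 points in WT and 2 CD11b-lower in R878H, both in introns. At the first (chr12:3857929-3858097) methylation was 90.3% and 83.0% in WT and 74.2% and 43.6% in R878H, and at the other (chr12:3814892-3815345) 85.9% and 71.3% in WT and 74.1% and 51.6% in R878H. At Tdg, a glycosylase that removes oxidised methylcytosine, the gap widened from 35.7 to 51.2 points (chr10:82647242-82647495), with 91.7% and 56.0% in WT and 82.5% and 31.3% in R878H. At Tet3, an oxidase that starts demethylation, it narrowed from 53.4 to 25.3 points, with 17.6% and 71.0% in WT and 7.60% and 32.9% in R878H. At Tet2, another such oxidase, it went from 5.70 to 21.1 points, with 64.8% in CD4+ and 86.0% in CD11b+ cells of R878H mice. The promoter of Vav1 (chr17:57279430-57279938) was nearly unmethylated in WT, at 4.30% in CD4+ and 1.96% in CD11b+, and stood at 42.3% and 55.2% in R878H. The Cre transgene carries Vav1 promoter sequence, and reads from it cannot be told apart from those of the gene itself in these tables. Whether the WT mice carried the transgene is not given.

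Among the mTOR genes that the study names, 2 of 30 regions (6.67%) were CD4-lower and 3 (10.0%) CD11b-lower in each genotype, beside 1.97% and 5.87% over all genes in R878H. Within the gene bodies alone, 0 of 23 regions were CD11b-lower in WT and 1 in R878H. The promoter of Eif4ebp1, a translation repressor that mTOR inhibits, widened from 23.5 to 43.9 points, with 82.6% and 59.0% in WT and 72.8% and 28.9% in R878H. A region inside Mtor, at the start of the nested gene Angptl7, was CD4-lower at 60.4% and 84.5% in WT and 46.1% and 69.2% in R878H. Near Pcna, a replication clamp gene, in the neighbouring gene Tmem230, it was 68.7% and 44.9% in WT and 55.2% and 32.6% in R878H. Lists of other cell types that either sort could hold are given beside the shares over all genes, and their part in the results was not tested. B cell genes had 1 CD4-lower region of 101 (0.990%) in both genotypes and 6 CD11b-lower regions (5.94%) in WT and 5 (4.95%) in R878H, beside 4.79% and 5.87% over all genes, with Pou2af1 at 32.2% in CD4+ and 6.95% in CD11b+ Cd79b at 69.2% and 37.8%, Bank1 at 53.1% and 26.6% and Ebf1 at 37.2% and 64.7% in R878H. Natural killer genes had 1 of 9 (11.1%), at Eomes, which was CD4-lower in both genotypes, and erythroid and platelet genes had 1 CD11b-lower and 1 CD4-lower region of 27 (3.70% each) in R878H, at Pf4 (39.8% in CD4+ and 14.9% in CD11b+) and Gp1bb (34.7% and 56.5%), with none in WT. For marker genes of the sorted cells, 19 of 58 T cell marker regions (32.8%) were CD4-lower in WT and 17 (29.3%) in R878H, beside 1.27% and 1.76% of all pairs, and 1 was CD11b-lower in R878H. Of 51 myeloid marker regions, 10 (19.6%) were CD11b-lower in WT and 8 (15.7%) in R878H, beside 4.23% and 5.03% of all pairs, while 2 (3.92%) were CD4-lower in WT and 1 (1.96%) in R878H. One of the CD4-lower regions of WT lies near Lyz2, the lysozyme gene of myeloid cells, at 54.3% in CD4+ and 74.8% in CD11b+ cells, and Itgam, which encodes CD11b itself, had no region past 20 points among 7.

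The largest lineage differences of R878H cells were also past 20 points in WT. The 5 largest CD4-lower regions were 54.2 to 55.6 points apart, and the widest was the Fndc3b intron printed above, at 14.7% and 65.8% in WT and 26.4% and 82.0% in R878H. The Arhgap9 promoter widened from 35.4 to 54.8 points, with 21.9% in CD4+ and 76.7% in CD11b+ cells of R878H mice. Introns of Ptprk, Spats2 and Ttc13 completed the group, with gaps of 54.7, 54.6 and 54.2 points in R878H and 60.7, 58.6 and 52.3 points in WT. The 5 largest CD11b-lower regions were 57.1 to 66.7 points apart. The Csnk1e promoter led at 89.6% and 31.1% in WT and 82.8% and 16.1% in R878H, and the Coq2 intron followed at 83.6% and 22.8% in WT and 73.2% and 10.7% in R878H. Introns of Msrb3 and Snx9 and a region near Hmga1 were next, and the Msrb3 gap widened from 33.1 to 58.2 points. These 10 regions overlapped by 50.5 to 79.5% between the tables, so the cell types were partly read at different CpGs there.

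In the differences that shrank most, the methylated cell type lost methylation, and at some the other cell type also gained it. At the Kcnn4 exon, a gene for a potassium channel of lymphocytes, CD11b+ cells went from 79.6% to 25.0% while CD4+ cells went from 22.5% to 12.5%. At the Rnf157 intron, CD11b+ cells went from 77.8% to 44.1% while CD4+ cells went up from 42.4% to 52.9%. Introns of Cnot10 and a region near Rnf7 also closed, to gaps of 2.92 and 5.00 points. Among CD11b-lower regions, the stretch near Nanos3 went from 68.2% to 16.7% in CD4+ and from 23.6% to 8.10% in CD11b+ cells. At an exon of Slc25a12, CD4+ cells went from 58.4% to 13.8% while CD11b+ cells went from 15.4% to 4.30%. The Nfic promoter and the Vrk1 intron completed the group, with R878H gaps of 12.5 points in the opposite direction and 4.14 points.

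Differences that grew most were of separate kinds in the 2 directions. All 4 CD4-lower ones had CD11b+ cells above WT. At an exon of Srgap2, levels were 1.70% and 1.35% in WT and 1.23% and 44.3% in R878H, and in the Rn7s2 gene near Nemf 10.7% and 0.635% in WT and 3.83% and 44.5% in R878H. Rn7s2 encodes a copy of the signal recognition particle RNA, a repeated sequence whose reads may not be placed uniquely. The Hmga1b promoter, at 4.85% and 39.1%, and the Sema4d intron, at 36.5% and 66.0% in R878H, were the others. The CD11b-lower ones described here each had a larger loss in CD11b+ than in CD4+ cells. The Abr intron went from 90.8% and 81.8% to 81.2% and 36.0%, and the Crim1 intron from 88.0% and 83.5% to 73.2% and 39.0%. The Spi1 intron, described above, was among them.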

How the data were processed

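WGBS of splenic CD4+ and CD11b+ cells from WT and Dnmt3a R878H/+ mice was used. The authors mapped reads to mm10 with BISCUIT and ran metilene on CpG methylation, separately in each cell type. The study states criteria for calling differentially methylated regions, which were not applied here. Versions, metilene's settings and a coverage minimum are not given in the sources used here, and the labels' processing notes name FastQC and mm10. The deposited tables give the authors' mean methylation of each group as a percent, with no header. The first group was read as WT. They also hold the authors' own comparison of genotypes (q-value, difference and p-values), which was not used. In regions of few cytosines, 100% of the means were whole-percent averages over 4 libraries in every group, CD11b+ R878H/+ included. The listed cytosines lie on either strand, at least 10 per region. Depth is unknown.

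Region starts were converted to count from 1. Regions were paired at a reciprocal overlap of 50%, and a lineage difference was a gap of at least 20 points. Growth and shrinkage needed 10 points. Genes came from GENCODE M21, a promoter was the 1 kb on either side of a start, and lists took regions up to 5 kb from a gene body. Named genes were up to 4 per list by the size of the R878H difference, the 5 largest regions per direction, the 4 per direction that shrank or grew most, Dnmt3a and Vav1; a few of these are not reported here. The members and lists were chosen with earlier results of these data known. Pairing and counting were tested on simulated data. With group means alone, no test was possible. Python 3.11.15, numpy 2.4.6, pandas 2.3.3, pysam 0.24.0, samtools 1.23.1 and matplotlib 3.10.9 were used. Alternatives changed the overlap, the size, the margin, the number of cytosines, the scale and the flank.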

Additional observations from a re-analysis of the deposited data

How the results depend on the processing

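In every alternative R878H had more CD4-lower regions than WT, and more CD11b-lower regions except on the log2 odds scale. At an overlap of at least 80% there were 466 CD4-lower and 2205 CD11b-lower regions in R878H, with 57.4% and 65.8% of WT differences kept and 56.7% and 44.6% of R878H differences absent in WT. At 95% these were 155 and 962 regions, 49.2% and 65.4% kept, and 59.4% and 44.5% absent in WT. With identical start and end, an alternative chosen after seeing the data, there were 52 and 376 regions, 39.5% and 66.2% kept, and for CD4-lower 71.2% absent in WT. The cause of the lower kept share of CD4-lower regions was not tested. With over 10 cytosines in both tables there were 546 and 2049 regions, with 66.1% of CD11b-lower WT differences kept and 54.2% of CD4-lower R878H differences absent in WT. With the same number of cytosines in both there were 867 and 2316. These settings keep fewer pairs by construction. A size of 10 points gave 9407 and 20630 regions, 74.8% and 77.0% kept, and for CD11b-lower 31.9% absent in WT. A size of 30 points gave 593 and 1906 regions, 58.2% and 54.2% kept, and 45.9% and 60.1% absent in WT. On the log2 odds scale, 60.5% and 59.3% were kept and 33.0% of CD11b-lower R878H differences were absent in WT. Without pairs that changed by over 20 points with genotype in either cell type, also chosen after seeing the data, there were 2980 CD11b-lower regions, 77.2% of CD4-lower and 77.9% of CD11b-lower WT differences were kept, and 39.2% and 36.5% were absent in WT.

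With a margin of 5 points, 39.3% of CD4-lower and 36.6% of CD11b-lower WT differences shrank and 14.9% and 20.3% grew, and with 20 points 5.10% and 2.53% shrank. With the gene body alone, 22 of 26 counts of listed genes stayed within 1.5 times. A count without the authors' differentially methylated regions was not run, since it needs their q-values. No paired analysis was possible because the tables hold group means only, and for the same reason no replicate could be left out. Depth, the spread between mice and sort purity limit every value here and could not be measured.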

Other observations

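Several genes stood out by the number of their regions that differed between the lineages in R878H cells, and all were chosen after their values were seen. Beside Bcl11b, CD4-lower regions were most numerous at Prkch, a protein kinase C gene of lymphocytes, with 8 of 41 regions in R878H and 4 in WT. Bach2, a transcription factor that holds lymphocytes in a resting state, had 8 of 62 in R878H and 5 in WT. Arhgef3 had 7 of 42 in R878H and 1 in WT. Rhoh, a gene of blood cells, had 6 of 13 in R878H and 4 in WT. CD11b-lower regions were most numerous at Fgfr2, with 20 of 232 regions in R878H and 6 in WT. Its annotated span is 2960 kb, so regions counted there may also lie at other genes. Etv6, a transcription factor of blood cells, had 18 of 86 in R878H and 13 in WT. Foxp1, a forkhead factor, had 14 of 97 in R878H and 15 in WT, and Elmo1, which acts in the uptake of dying cells, had 11 of 56 in R878H and 4 in WT. Long genes have more regions and so more chances, and over all genes 1.97% of regions were CD4-lower and 5.87% CD11b-lower in R878H. The annotated read-through gene Gm20388 held 15 CD4-lower and 49 CD11b-lower regions of 615, but it spans 4430 kb and overlaps many other genes.

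Where both tables list identical starts and ends, the cell types were read over the same stretch. The 4 largest CD4-lower and 4 largest CD11b-lower regions of this kind were picked after the data were seen. A region between genes near Dusp10, a phosphatase gene of stress kinases (chr1:183987774-183987992), was at 35.2% in CD4+ and 93.9% in CD11b+ cells of WT mice and 43.9% and 92.8% in R878H. A region whose nearest start is Peli1, a ubiquitin ligase gene (chr11:21175042-21175386), was at 40.9% and 78.3% in WT and 29.7% and 65.7% in R878H. A region whose nearest start is Ly86 was at 50.9% and 91.0% in R878H, and an exon of Ahcyl2 at 54.4% and 90.8%. In the other direction, a region nearest to Zmiz1 (chr14:25412295-25412478) went from 85.7% and 57.6% to 72.0% and 25.1%. An exon shared by the genes Becn1 and Cntd1 (chr11:101287442-101287595) went from 87.7% and 50.1% to 63.9% and 17.9%. The regions nearest to Alas1 and Inhba were at 84.1% and 38.7% and at 74.2% and 29.7% in R878H. All 8 were picked for their size in R878H, so their width there follows from the choice, and all exceeded 20 points in WT as well. Among all R878H differences with identical start and end, 71.2% of 52 CD4-lower and 42.8% of 376 CD11b-lower pairs were under 20 points in WT. The listed cytosines could still differ in number, with 12 in CD4+ and 10 in CD11b+ cells near Dusp10.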
